A study of Mus musculus with 6 samples.

Results

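Themis is the gene of a T cell signalling protein, and it was set here beside 37 genes that mark T cells, B cells, plasma cells, natural killer (NK) cells or leukocytes in general, in 6 mouse liver libraries. The 38 genes were chosen by symbol from a raw count table of 55401 genes, and each symbol matched 1 row. Themis was on the list because it had stood out in the comparison described here, so its difference between the groups and the p-values attached to it are given as a description, and nothing is supported with them. The other 37 genes were 18 T cell genes, 4 genes of all leukocytes, 4 B cell genes, 3 plasma cell genes and 8 NK cell genes.

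Both groups were fresh hepatic tissue of C57BL/6 mice. The HFCF group was labelled as fed a high fat, cholesterol and fructose diet, and the OP group was labelled as treated with OP, the okra polysaccharide of the series title, in a study of metabolic-associated fatty liver disease. Each group had 3 libraries, made from poly(A)-selected RNA and sequenced in pairs of reads. The labels give no dose, duration, sex or age, do not state the diet of the OP group, and do not say whether replicates were separate mice, so the p-values measure the spread between these libraries.

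Themis binds the adaptor Grb2 and the phosphatase Ptpn6 (Shp1) and tunes signals from the T cell receptor while thymocytes are selected. That receptor is an antigen-binding pair of chains, encoded in part by Trac, Trbc1 and Trbc2, which signals through the Cd3 chains and Cd247, and then through the kinases Lck and Zap70 and the adaptor Lat. In the liver, T cells, NK cells and smaller numbers of B and plasma cells lie among the hepatocytes, mostly in the sinusoids and portal tracts. Bulk RNA from such tissue sums over all cells, so fewer cells of a type and less RNA per cell cannot be told apart.

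Totals ran from 46459980 to 61918541 counts, and a gene with 3 counts stood at 0.0472 to 0.0625 CPM (counts scaled to a common effective library size). The 7 matched hepatocyte markers summed to between 37533 and 86860 CPM in every library, against 23.0 to 38.7 CPM for all 18 T cell genes together. Mitochondrial mRNAs took 14.1 to 22.0% of the counts in HFCF and 6.08 to 14.4% in OP. OP replicate 2 stood apart in the immunoglobulin genes, and results that rest on it are given with and without it. Across all 17394 genes tested with edgeR's quasi-likelihood test, 6.73% passed an adjusted p of 0.05 between OP and HFCF, 3.26% higher in OP and 3.47% lower.

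The sequence before the start of Themis is shown beside those of 2 of the Cd3 genes, since the levels of these genes parted in the data. The windows are the 250 bases before an annotated start, 5′ to 3′ on the strand of the gene, from RefSeq on GRCm38.p6. They lie at chr10:28668110-28668359 on the plus strand for Themis, at chr9:44981536-44981785 on the plus strand for Cd3d and at chr9:45009612-45009861 on the minus strand for Cd3e. Capitals mark matches on either strand to 5 short motifs, which are an ETS site (AGGAAGT), a RUNX site (TGTGGT), an E-box (CAGGTG), a partial site of HNF1 (GTTAAT) and an HNF6 site (ATCAAT). The first 3 are bound by factor families active in T cells, and the others by liver factors.
Themis: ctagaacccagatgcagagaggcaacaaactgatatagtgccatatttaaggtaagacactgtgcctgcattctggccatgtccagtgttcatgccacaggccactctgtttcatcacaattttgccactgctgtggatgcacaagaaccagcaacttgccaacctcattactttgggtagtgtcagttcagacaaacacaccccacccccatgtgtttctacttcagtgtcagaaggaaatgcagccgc
Cd3d: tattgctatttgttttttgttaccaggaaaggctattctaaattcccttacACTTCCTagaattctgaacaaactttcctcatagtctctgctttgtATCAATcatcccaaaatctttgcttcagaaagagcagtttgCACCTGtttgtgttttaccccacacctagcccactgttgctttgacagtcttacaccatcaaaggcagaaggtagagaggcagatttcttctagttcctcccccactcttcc
Cd3e: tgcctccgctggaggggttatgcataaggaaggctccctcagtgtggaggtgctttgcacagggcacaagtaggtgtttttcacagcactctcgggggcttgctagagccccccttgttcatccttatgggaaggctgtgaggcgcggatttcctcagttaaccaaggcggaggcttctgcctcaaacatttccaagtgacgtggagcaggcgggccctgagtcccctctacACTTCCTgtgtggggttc

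The ETS match lay 199 bases before the start in Cd3d and 18 bases before it in Cd3e, and Cd3d also held an HNF6 match and an E-box. Of the 9 T cell genes with a window, 5 held the ETS letters (Cd247, Cd3d, Cd3e, Cd5 and Lck), against 7.69% of 32851 windows of the same length. The E-box stood in 6 of the 9, against 17.2% of windows, and the RUNX letters in 2 of 9, against 14%. The HNF1 letters stood in none of the 9 and the HNF6 letters in 1, against 6.43% and 6.72% of windows. The units differ, since a gene counted if any of its windows matched and the percentages are per window. Lck and Zap70 had more than 1 window each. Neither of the 2 overlapping windows of Themis held any of the 5 motifs, which says only that these letters are not in these windows. The windows of the T cell genes Cd8a and Lat held none of them either.

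Themis (ENSMUSG00000049109) had 68, 17 and 92 counts in HFCF replicates 1 to 3 and 537, 530 and 822 counts in OP. In CPM this was 1.41, 0.353 and 1.52 in HFCF and 8.95, 8.33 and 17.1 in OP. Every OP library lay above every HFCF library, the lowest being HFCF replicate 2 and the highest OP replicate 3. The mean was 1.09 ± 0.644 CPM (SD, n = 3) in HFCF and 11.5 ± 4.90 CPM in OP, a fitted log2 fold change of 3.38 ± 0.53 (SE) with an edgeR adjusted p of 0.0125. The adjusted p rose to 0.0820 without HFCF replicate 1 and to 0.0519 without OP replicate 1, with log2 fold changes of 3.59 and 3.53. When the share of mitochondrial mRNA entered the fit as a covariate, where 1.19% of all tested genes passed, the log2 fold change was 3.81 with an edgeR adjusted p of 0.0558. The exons of Themis share 153 bases with a pseudogene on the other strand, 4930519F09Rik, which had 1 count in all 6 libraries together.

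None of the 18 T cell genes, all of which were tested, passed the test in either direction. Their edgeR adjusted p-values ran from 0.405 to 0.999. Their median log2 fold change was -0.43, against 0.02 over all tested genes, with 6 above 0 and 12 below, where 48.6% of all tested genes lay below 0. The median stayed between -0.51 and -0.19 when each library was left out in turn. For 2 of the 18, Cd3g and Trbc1, the groups did not overlap, both lower in OP, while 31.2% of all tested genes had groups that did not overlap.

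**Figure D1:**
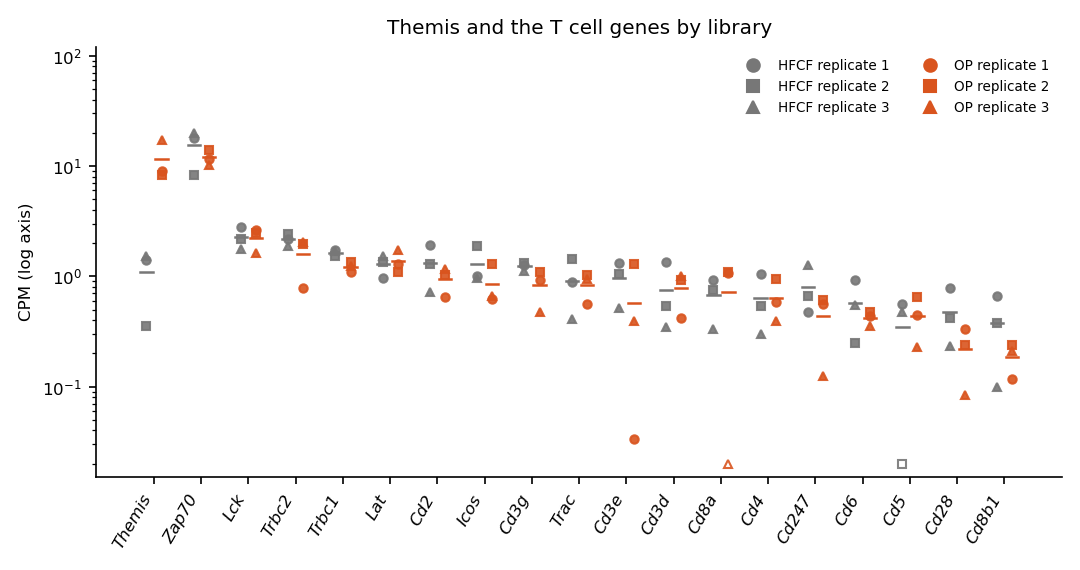
Level of Themis and of the 18 T cell genes in each library, in CPM on a log axis. Grey symbols are the HFCF libraries, orange symbols the OP libraries, short bars the group means, and open symbols at the bottom libraries with 0 counts. Themis stood at 0.353 to 1.52 CPM in HFCF and at 8.33 to 17.1 CPM in OP, while 16 of the 18 T cell genes had groups that overlapped.

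The receptor chains, which only T cells assemble into a receptor, were low in both groups. Trbc2, a constant segment of the beta chain, had 106, 117 and 115 counts in HFCF and 47, 126 and 98 in OP. In CPM, OP replicates 2 and 3 lay within the HFCF range and OP replicate 1 below it, and its log2 fold change was -0.44 ± 0.40. Trbc1 and Trbc2 are near copies of each other, so reads may be split between them. Cd3e, a signalling chain of the receptor, had 64, 51 and 31 counts in HFCF and 2, 82 and 19 in OP, and in CPM its OP libraries spread from far below the HFCF range to within it. Cd3d, Cd3g, Cd247 and Trac had fitted log2 fold changes between -0.87 (Cd247) and 0.07 (Cd3d). Exons of Cd247 overlap those of Pou2f1 on the other strand over 56.4% of their length, so its counts are uncertain.

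Zap70, the kinase recruited to the phosphorylated receptor, was the most abundant T cell gene and is also made by NK cells. It had 17.8, 8.27 and 20.1 CPM in HFCF and 11.7, 14.0 and 10.3 CPM in OP, with the OP libraries inside the HFCF range. Lck, the kinase that phosphorylates the receptor chains, had 136, 104 and 107 counts in HFCF and 158, 158 and 78 in OP. The means of Lck were 2.25 ± 0.532 and 2.25 ± 0.545 CPM (SD, n = 3), and its log2 fold change of 0.00 had an interval of 2 SE on each side from -0.64 to 0.64. Lat, the adaptor phosphorylated by Zap70, gave 0.10 ± 0.36.

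Of the coreceptors, Cd4 and Cd8a gave log2 fold changes of 0.03 ± 0.61 and 0.11 ± 1.08, and Cd8b1 had 32, 18 and 6 counts in HFCF and 7, 15 and 10 in OP. Cd8a had 64 and 69 counts in OP replicates 1 and 2 and 0 in OP replicate 3. Cd28, a costimulatory receptor, had the smallest unadjusted p of the T cell genes (0.177), with 38, 20 and 14 counts in HFCF and 20, 15 and 4 in OP. The other costimulatory receptor, Icos, and the surface proteins Cd2, Cd5 and Cd6 ran from -0.58 (Icos) to 0.35 (Cd5).

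Standard errors of the T cell genes ran from 0.31 to 1.08 on the log2 scale, so a change as small as 2-fold was not detectable in many of them at this depth. With 2 SE on each side, Themis ran from 2.32 to 4.44, the upper end lay under 3.38 for all 18 T cell genes, and it lay under 2.32 for 17 of them. The exception was Cd5, a receptor that damps T cell signals, whose upper end was 2.48. Cd5 had 27, 0 and 29 counts in HFCF and 27, 41 and 11 in OP. Since Themis was listed for its rise, setting the T cell genes against its estimate and interval restates that rise and is given as a description.

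Set against the summed Cd3d, Cd3e and Cd3g level of the same library, Themis stood at a ratio of 0.358, 0.121 and 0.773 in HFCF and 6.47, 2.52 and 9.13 in OP. The lowest OP ratio was above the highest HFCF ratio. Since Themis, listed for its rise, is the numerator, this split restates that rise and is given as a description. The same holds for its place per kilobase. Per kilobase of exon, the mean level of Themis went from 0.0937 CPM per kb in HFCF, where 15 of the 18 T cell genes lay above it, to 0.981 CPM per kb in OP, where 3 did. The median of the T cell genes went from 0.376 to 0.252 CPM per kb. With the length of the longest transcript in place of all exons, 13 of the 18 lay above Themis in HFCF and 2 in OP.

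The libraries within the OP group did not rank Themis and the T cell genes alike. Themis was highest in OP replicate 3, at 17.1 CPM, where 4 of the 18 T cell genes had their highest and 9 their lowest OP level. OP replicate 2, with the lowest Themis level of the group, held the highest OP level of 12 T cell genes. The summed level of the 18 genes was 38.7, 26.3 and 34.3 CPM in HFCF and 24.3, 31.8 and 23.0 CPM in OP, and without Zap70 it was 14.2 to 20.9 CPM against 12.6 to 17.8 CPM. On both sums the groups overlapped.

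The partners and relatives of Themis gave no call. Grb2 had a log2 fold change of 0.45 ± 0.18 (edgeR adjusted p of 0.165) and Ptpn6 of 0.23 ± 0.17. Themis2, the relative found in B cells and macrophages, had 328, 423 and 273 counts in HFCF and 310, 388 and 343 in OP, with a log2 fold change of -0.13 ± 0.27 (edgeR adjusted p of 0.815). A list of 36 further genes in the table held receptor signalling genes, transcription factors and homing receptors of T cells. It included Grb2, Ptpn6 and Themis2, and not all of its genes are limited to T cells. Of the 36, 31 were tested and none passed. Of the 31, 10 lay above 0 and 21 below, with a median of -0.27. At an unadjusted p of 0.05, 5 of the 31 passed, against 25.2% of all tested genes. Tespa1, a thymocyte signalling gene related in its role to Themis, gave -2.66 (edgeR adjusted p of 0.0543) and Txk, a T cell kinase, gave -1.73 (0.0766), the opposite sign to Themis. The highest of the list was Foxp3, at 0.84 ± 0.62 (edgeR adjusted p of 0.441).

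By the root mean square difference of log2 CPM around each gene's own mean over the 6 libraries, the genes most like Themis among 11901 included Lgals1 (0.568), Adgrv1 (0.649), Vmn2r20 (0.684) and Car3 (0.691). Lgals1 encodes galectin-1, Car3 a carbonic anhydrase, Adgrv1 a very large adhesion receptor and Vmn2r20 a vomeronasal receptor. All 4 were higher in each OP library than in each HFCF library, and the measure rewards any gene with such a split. The nearest T cell gene was Cd5, with 887 genes closer to Themis, followed by Lat with 4857, and Cd3e and Cd8a were among the farthest, with 11799 and 11819 genes closer. Cd5 had few counts, and 0 in HFCF replicate 2, the library where Themis was lowest too. Gzmb, a granzyme of NK and cytotoxic T cells, was the nearest of the 36 tested members beside Themis, with 414 genes closer.

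**Figure D2:**
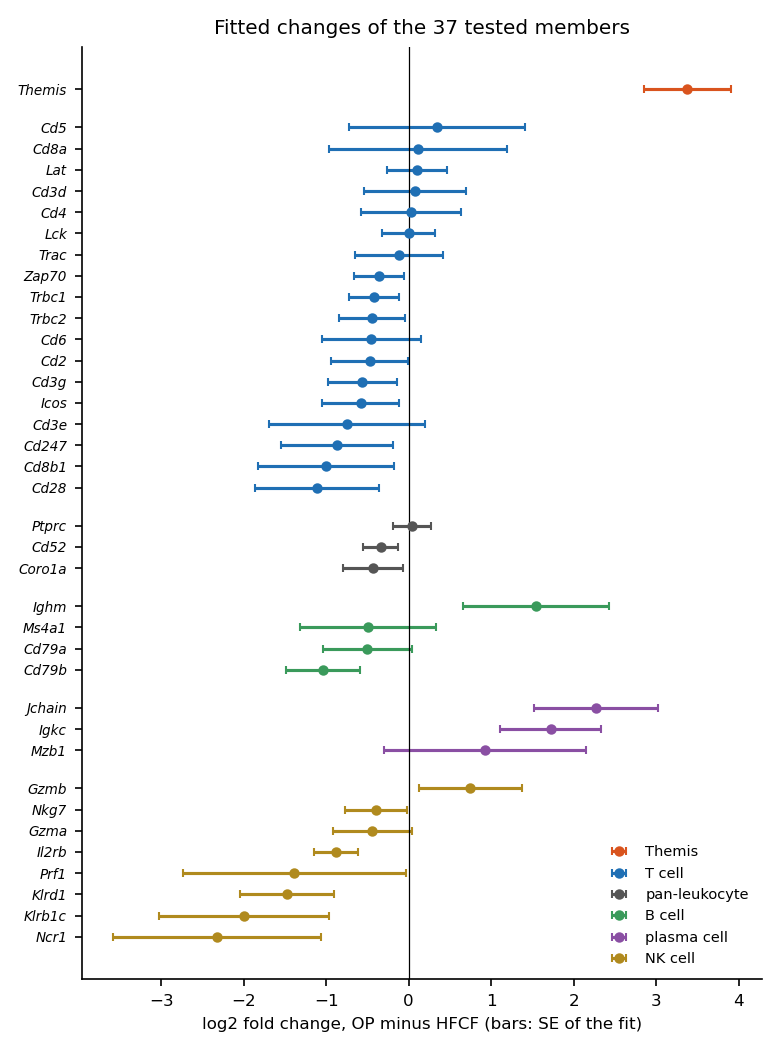
Fitted log2 fold change, OP minus HFCF, of the 37 lymphocyte genes tested, sorted within class, with bars of 1 SE on each side. Themis stands at 3.38, the T cell genes lie between -1.11 and 0.35, 7 of 8 NK cell genes lie below 0, and Ighm and the 3 plasma cell genes lie above 0.

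Over all classes, Themis was the 1 member of 37 tested that passed the test, against 6.73% of all tested genes. Of the 36 others, 0 passed in edgeR and 0 in limma-voom, where 7.58% of all tested genes did. DESeq2 passed Il2rb alone (adjusted p of 0.0440, lower in OP), where 15.1% of its genes with an adjusted p passed. It gave no adjusted p for Cd28, Cd5, Cd8b1, Gzmb, Ncr1 and Prf1. At an unadjusted p of 0.05, 5 of the 36 passed in edgeR, against 25.2% of all tested genes. Ptprcap, the protein associated with Cd45, was too low to be tested, with 18, 0 and 6 counts in HFCF and 0, 16 and 0 in OP, and 76.0% of its exon length overlaps Rps6kb2 on the other strand.

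None of the 3 tested genes of all leukocytes passed the test. Ptprc, which encodes the phosphatase Cd45, had 664, 657 and 683 counts in HFCF and 594, 1143 and 574 in OP, a log2 fold change of 0.04 ± 0.23. Coro1a, an actin-binding coronin of leukocytes, had 18.1, 15.8 and 9.84 CPM in HFCF and 5.68, 16.1 and 10.5 CPM in OP, a change of -0.43 ± 0.37. Cd52, a small surface glycopeptide of lymphocytes, had 10.6, 8.00 and 7.46 CPM in HFCF and 6.33, 8.21 and 6.02 CPM in OP, a change of -0.34 ± 0.21. In all 3 genes OP replicate 2 was the highest of its group and the groups overlapped.

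None of the 4 B cell genes passed the test, and 3 lay below 0 and Ighm above it, while without OP replicate 2 all 4 lay below 0. Cd79b, a signalling chain of the B cell receptor, had 8.00, 5.68 and 5.13 CPM in HFCF and 1.43, 5.33 and 2.37 CPM in OP. Its log2 fold change was -1.04 ± 0.45 with an edgeR adjusted p of 0.194, and without OP replicate 2 it was -1.72 with 0.0415. Cd79a, its partner chain, had 7.94, 4.12 and 2.86 CPM in HFCF and 1.42, 6.05 and 3.04 CPM in OP, and Ms4a1, which encodes Cd20, gave -0.49 ± 0.82. For these 3 genes together OP replicate 2 stood at 14.4 CPM and OP replicates 1 and 3 at 3.27 and 6.25 CPM, against 9.51 to 19.9 CPM in HFCF.

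Ighm, the IgM heavy chain of B cells and plasma cells, had 1068, 677 and 671 counts in HFCF and 478, 7445 and 619 in OP. OP replicate 2 was 11.2 times the mean CPM of the other OP libraries, and both of those lay below HFCF replicate 1. The log2 fold change of 1.55 ± 0.88 became -0.60 without OP replicate 2. The median of the 4 B cell genes was -0.50, and it ran from -1.43 without OP replicate 2 to 0.22 without HFCF replicate 1.

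**Figure D3:**
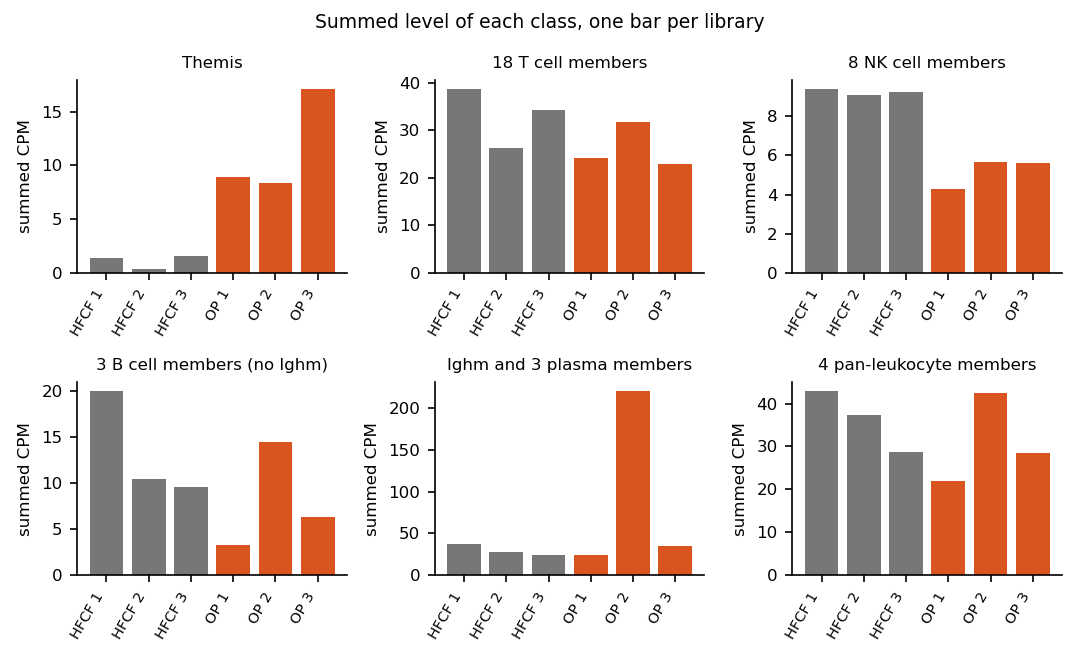
Summed CPM of each class of lymphocyte genes, 1 bar per library, each panel on its own axis from 0. Ighm is shown with the plasma cell genes, where OP replicate 2 reached 220 CPM against 23.4 to 36.5 CPM in the 5 other libraries, and the NK cell sum was 9.08 to 9.39 CPM in HFCF and 4.30 to 5.66 CPM in OP.

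The plasma cell genes were highest in OP replicate 2. Igkc, the kappa light chain, had 593, 545 and 651 counts in HFCF and 759, 5203 and 904 in OP. Jchain, which joins IgM and IgA into polymers, had 65, 71 and 124 counts in HFCF and 144, 1173 and 133 in OP. In both genes every OP library lay above every HFCF library in CPM. For Igkc, OP replicates 1 and 3 stood at 12.6 and 18.8 CPM, against at most 12.3 CPM in HFCF. For Jchain they stood at 2.40 and 2.77 CPM, against at most 2.05 CPM. Mzb1, a chaperone of antibody assembly, had 36, 28 and 24 counts in HFCF and 24, 182 and 0 in OP, and 57.2% of its exon length overlaps SPATA24 on the same strand.

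The fitted log2 fold changes were 1.72 ± 0.61 for Igkc (edgeR adjusted p of 0.124), 2.28 ± 0.75 for Jchain (0.103) and 0.93 ± 1.22 for Mzb1 (0.686). Without OP replicate 2 they were 0.46, 0.67 and -1.48, and the median of the 3 went from 1.72 to 0.46. With the mitochondrial mRNA share as a covariate that median was 0.26. OP replicate 2 had the lowest mitochondrial mRNA share of the 6 libraries, 6.08%, and the part of that share in the result was not tested.

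**Figure D4:**
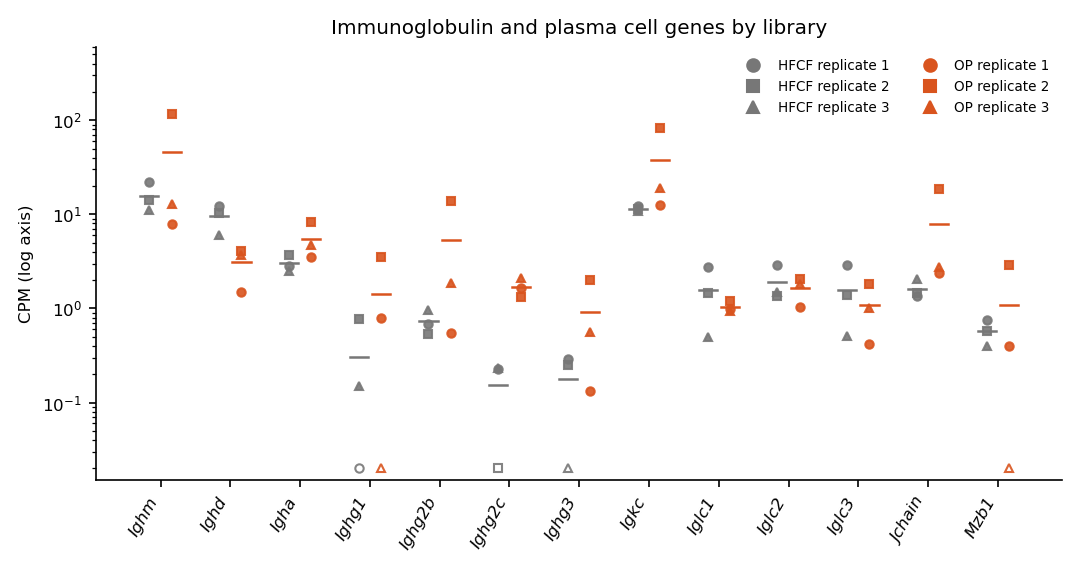
Level of the immunoglobulin constant genes and of Jchain and Mzb1 in each library, in CPM on a log axis, with symbols as in the plot of Themis and the T cell genes. OP replicate 2 stood at 117 CPM for Ighm and 81.8 CPM for Igkc, while Ighd was lower in all OP libraries than in any HFCF library and Ighg2c higher in all.

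The immunoglobulin classes outside the list did not all follow OP replicate 2. Ighg2b, an IgG heavy chain, had 33, 26 and 59 counts in HFCF and 33, 871 and 89 in OP, again with OP replicate 2 apart. Ighg2c, the IgG2c heavy chain of this strain, had 11, 0 and 14 counts in HFCF and 98, 84 and 100 in OP, so that its OP libraries were alike and all above HFCF. Its log2 fold change was 3.42 ± 0.85 with an edgeR adjusted p of 0.0502. Ighd, the IgD heavy chain of mature naive B cells, had 589, 499 and 366 counts in HFCF and 89, 260 and 179 in OP, a change of -1.62 ± 0.41 (edgeR adjusted p of 0.0522). Of 13 further plasma cell genes tested, Derl3, a protein of endoplasmic reticulum quality control that other secretory cells also make, fell by 1.59 on the log2 scale (edgeR adjusted p of 0.0307), and none rose. Of the 13, 6 lay above 0 and 7 below, with a median of -0.02, and the lambda chain genes Iglc1, Iglc2 and Iglc3 gave -0.58, -0.23 and -0.54. Derl3 lost the call on leaving out any library but HFCF replicate 3. Of 15 further B cell genes tested none passed, 13 lay below 0 and the median was -0.78.

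The NK cell genes lay mostly below 0 with little counting depth. Il2rb, the beta chain shared by the receptors for interleukins 2 and 15, which is on T cells as well, had 185, 209 and 254 counts in HFCF and 99, 158 and 124 in OP. Every OP library lay below every HFCF library in CPM, with means of 4.12 ± 0.261 and 2.24 ± 0.512 CPM (SD, n = 3). Its log2 fold change was -0.88 ± 0.26 with an edgeR adjusted p of 0.0802. Klrd1, the Cd94 receptor chain, had 54, 43 and 56 counts in HFCF and 19, 37 and 7 in OP, a change of -1.47 ± 0.57 (edgeR adjusted p of 0.151). Nkg7, a cytotoxic granule protein, had 92, 68 and 94 counts in HFCF and 47, 83 and 78 in OP, and its groups overlapped.

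Of the other NK cell genes, the receptors Klrb1c and Ncr1 also had groups that did not overlap, each lower in OP, so that 4 of 8 did, where 15.4% of all tested genes had groups that did not overlap and were lower in OP. Klrb1c had 32, 58 and 76 counts in HFCF and 33, 0 and 11 in OP. Its groups overlapped in counts and parted only in CPM, at 0.664 in HFCF replicate 1 against 0.550 in OP replicate 1. Ncr1 had 13, 12 and 20 counts in HFCF and 0, 10 and 0 in OP. Prf1, the pore former perforin, and the granzyme Gzma gave -1.38 ± 1.35 and -0.44 ± 0.48. Gzmb, at 8 to 35 counts, was the 1 gene of the class above 0, at 0.75 ± 0.62. The summed level of the 8 genes was 9.39, 9.08 and 9.25 CPM in HFCF and 4.30, 5.66 and 5.60 CPM in OP.

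The median of the NK cell genes was -1.13 and ran from -1.56 with the mitochondrial mRNA share as a covariate to -0.66 among the genes with at least 1 CPM in 3 libraries. Of 13 further NK and innate lymphoid genes tested, none passed, 7 lay above 0 and 6 below, and the median was 0.18. The most abundant of these, Itga1, Tyrobp and Fcer1g, at means of 15.4, 10.0 and 8.29 CPM, are not limited to such cells. They gave -0.07, 0.20 and 0.20. The receptor genes Klrc1 and Klrc2 were the lowest, with log2 fold changes of -1.64 and -1.68. Of 10 lymphoid recruitment genes tested, the chemokines Cxcl9 and Cxcl10 rose, by log2 fold changes of 1.57 ± 0.36 and 1.64 ± 0.34 (edgeR adjusted p-values of 0.0392 and 0.0300). Cxcl9 lost the call without any library but OP replicate 2, and Cxcl10 without replicate 1 or 2 of HFCF or replicate 1 or 3 of OP. Their receptor on T and NK cells, Cxcr3, had 48, 33 and 16 counts in HFCF and 24, 45 and 48 in OP, with a log2 fold change of 0.12 ± 0.61.

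Markers of blood and of other cells that the tissue could hold were read beside these classes. Of 6 red cell genes, the 4 globin genes Hba-a1, Hba-a2, Hbb-bs and Hbb-bt fell. Slc4a1 gave -2.41 ± 1.02 with no call. Alas2 went the other way, at 0.33 ± 0.14 with no call, and every OP library lay above every HFCF library in CPM. The 6 genes, mostly through the globins, summed to 941 to 1768 CPM in HFCF and to 192 to 415 CPM in OP. In that sum OP replicate 2 was the highest of its group. Each globin gene lost the call without HFCF replicate 1 or 2, and 3 of the 4 without OP replicate 1. The part of blood in the lymphocyte levels was not tested. The 4 tested adipocyte genes gave no call, and all 6 summed to 6.51 to 26.5 CPM in HFCF and 17.5 to 86.6 CPM in OP. That sum came mostly through Cfd and Fabp4. Cfd had 0, 0.104 and 3.32 CPM in HFCF and 12.2, 26.5 and 63.0 CPM in OP. Its log2 fold change was 4.84 ± 1.30 (edgeR adjusted p of 0.0626). Adipoq and Plin1 had 0 counts in OP replicate 1. No gene passed among 15 Kupffer cell and macrophage genes, 5 neutrophil, 6 dendritic, 4 platelet, 6 endothelial, 6 stellate and fibroblast and 5 cholangiocyte genes tested. All 5 neutrophil genes lay below 0 (median of -1.24), with sums over the list of 8.39 to 13.3 CPM in HFCF and 4.31 to 7.64 CPM in OP. All 4 platelet genes also lay below 0 (-2.07 to -0.44), with mean sums of 2.88 ± 1.22 CPM in HFCF and 1.34 ± 0.164 CPM in OP (SD, n = 3). The part of these blood cells in the NK and B cell levels was not tested. Of 7 hepatocyte genes Ttr, a plasma transport protein, rose and Cps1, the first enzyme of the urea cycle, fell, and both lost the call on leaving out HFCF replicate 1 or 2, Ttr also without OP replicate 1 and Cps1 without OP replicate 2. Among genes whose liver level differs by sex, 6 of 16 female-biased genes tested rose (Cyp2b9, Cyp2b13, Hao2, Slc22a26, Slc22a27 and Slc22a29) and 1 fell (Cux2). Of 12 male-biased genes, 3 rose (Nudt7, Cyp2u1 and Bcl6) and 0 fell. Over all tested genes 3.26% rose and 3.47% fell. Of these 10 genes, Cux2 and Cyp2u1 kept the call whichever library was left out. The others lost it without at least 1 library, Cyp2b13 in 5 of 6 cases and Slc22a29 in all 6. Each of the others also lost it with replicate numbers as a block or the mitochondrial mRNA share as a covariate, and Cyp2b9 and Slc22a29 in limma-voom. With the mitochondrial mRNA share as a covariate, Derl3, Cxcl9, Cxcl10, the 4 globin genes, Ttr and Cps1 lost the call too. The part of these lists in the level of Themis was not tested.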

How the data were processed

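Gene counts were deposited by the authors as 1 raw count per gene and library. Per the submitters' processing notes, reads were trimmed with cutadapt 1.9, checked with FastQC and referred to GRCm39. The sources used here do not name the aligner, counter, annotation or strand setting, and per the labels' protocols second strands carried dUTP. Genes with 4 counts outnumbered those with 3 or with 5 in all 6 libraries, as in HFCF replicate 1, with 879 such genes against 558 and 258. A pair of reads may therefore stand for more than 1 count, and no interval was taken from counting noise alone. The intervals of 2 SE came from the edgeR fit to these counts. Ensembl IDs were matched to symbols for 55141 of 55401 genes.

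Genes kept by edgeR 4.0.16 (filterByExpr) were scaled by TMM and tested with its quasi-likelihood test, two-sided, with Benjamini-Hochberg adjustment over all 17394 genes and a threshold of 0.05. CPM use effective library sizes. Lengths per kilobase came from the GENCODE annotation given, on GRCm38. The members and the gene lists were chosen with earlier results of these data known, and no list was tested as a set. Of 200 symbols on 17 further lists, Trgc1, Trgc2 and Tf were not matched. RefSeq windows matched 20 of the 38 members. Values in every library are given for Themis, for called members, and for the 3 most abundant members and that with the smallest unadjusted p of each class. Of other genes, called list genes, Themis2 and, of the 5 genes most like Themis, 4 are named (1 is not reported here), the latter among tested genes with a mean of at least 1 CPM, with a prior count of 2. Cd3e, Cd8a, Ptprcap, Ncr1, Gzmb, Grb2, Ptpn6, Tespa1, Txk, Ighd, Ighg2b, Ighg2c, Iglc1, Iglc2, Iglc3, Klrc1, Klrc2 and Cxcr3 were named with their values known. The same holds for Cd5, Klrb1c, Foxp3, Slc4a1, Alas2, Itga1, Tyrobp, Fcer1g, Cfd, Fabp4, Adipoq and Plin1.

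Alternatives were DESeq2 1.42.0, limma-voom (limma 3.58.1), other scalings, filters and thresholds, robust dispersion, a replicate block, the mitochondrial mRNA share, counts divided by 4, and leaving out each library. No 2 libraries of a group agreed within counting noise. The procedure was tested on simulated data.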

Additional observations from a re-analysis of the deposited data

How the results depend on the processing

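Themis kept its sign in all settings, with log2 fold changes of 2.93 to 3.81 and adjusted p-values from 1.76e-12 (DESeq2) to 0.0820. It missed the threshold with the mitochondrial mRNA share as a covariate (3.81, adjusted p of 0.0558), without HFCF replicate 1 and without OP replicate 1, and leaving out each library gave 2.93 to 3.70. Members called higher in OP numbered 0 with the mitochondrial mRNA share as a covariate and 0 to 1 over the left-out libraries. Members called lower numbered 1 in DESeq2 (Il2rb), 1 at an adjusted p of 0.1 (Il2rb) and 0 to 1 over the left-out libraries (Cd79b without OP replicate 2).

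Over all genes, against 567 higher and 603 lower, the counts were 1180 and 1135 in DESeq2, 298 and 400 with no low-count filter, 110 and 97 with the mitochondrial mRNA share as a covariate, 1322 and 1230 at an adjusted p of 0.1, and 34 to 655 and 54 to 655 over the left-out libraries. With the replicate block they were 87 and 93, and Themis gave 3.52 with an adjusted p of 0.0304. The numbers did not pair the libraries, since deviations of same-numbered libraries correlated at 0.02, -0.13 and -0.16.

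The median of the NK cell genes was -0.66 with at least 1 CPM in 3 libraries, -1.56 with the mitochondrial mRNA share, -0.89 with counts divided by 4 and -1.19 to -0.76 over the left-out libraries. That of the B cell genes ran from -1.43 to 0.22 and that of the plasma cell genes from 0.46 to 2.14 over the left-out libraries, and the latter was 0.26 with the mitochondrial mRNA share. The T cell and pan-leukocyte medians moved by less than the spread between replicates in all 17 settings. The cause of these shifts was not tested, beyond the smaller number of genes or libraries in some. Most members had under 100 counts in a library, which limits their precision, as do the 3 libraries per group.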

Other observations

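Zap70 stood apart from the other T cell genes in CPM, with a mean of 15.4 in HFCF against 2.25 for Lck, the next highest. Per kb of exon it had 5.14 CPM in HFCF, against a median of 0.376 CPM per kb over the 18 T cell genes. On that measure Trbc2 and Trbc1 came next, at 3.15 and 2.19 CPM per kb. The counts of Zap70 were 858, 398 and 1218 in HFCF and 701, 889 and 494 in OP.

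In OP replicate 2 the level relative to the mean of the other OP libraries had a median of 7.14 over the plasma cell genes, 3.84 over the B cell genes, 1.65 over the pan-leukocyte genes, 1.38 over the T cell genes and 1.13 over the NK cell genes. These medians leave out Prf1, Ncr1 and Ptprcap, which had 0 counts in both other OP libraries. Of the 37 genes beside Themis, 27 had their highest OP level in that library, while Themis stood there at 0.64 times the mean of the other OP libraries.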
